A study of Mus musculus with 26 samples.

Results

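Serine synthesis, mitochondrial one-carbon metabolism and the amino acid stress response share a transcription factor, ATF4, and 10 genes of these routes were followed in mouse intestinal organoids. They were Phgdh, Psat1 and Psph for serine synthesis, Shmt2, Mthfd2 and Aldh1l2 for one-carbon metabolism, and Asns, Chac1, Trib3 and Ddit3 for the stress response. The set was selected on measured values of these data, because Aldh1l2 was about 4-fold lower with arachidonic acid at day 1. That contrast is therefore given for the 10 genes as a description without a p-value. All 10 genes were among the 55385 identifiers counted in every library, and all 10 passed the low-count filter at days 1 and 3 and at day 6.

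The organoids were small epithelial structures grown in Matrigel from crypts of C57BL/6 mice, and the libraries hold bulk RNA. Treated groups received arachidonic acid (AA, 25 µM), a dietary polyunsaturated fatty acid, or prostaglandin E2 (PGE2, 50 nM), a lipid mediator that cells can make from AA, and control groups received vehicle. The 2 doses differ. The treatment protocol names PGE2 while the design text names its 6,16-dimethyl form, so "PGE2" stands for either. AA, PGE2 and vehicle were each measured at days 1 and 3 with 3 libraries per group, and AA and vehicle at day 6 with 4 libraries per group. Every group shared a medium with EGF, Noggin, R-spondin, CHIR-99021 (a GSK3 inhibitor that raises Wnt signalling), Y-27632 (a ROCK inhibitor), N-acetyl-L-cysteine (an antioxidant and cysteine source), B27 and N2. Whether replicates came from separate cultures or mice is not stated, so p-values measure only the spread between these libraries, which may be technical.

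Cells make serine from a glycolytic intermediate through PHGDH, PSAT1 and PSPH, and SHMT2 passes a carbon of serine to folate inside mitochondria. MTHFD2 and ALDH1L2 oxidise that folate-bound carbon, which feeds nucleotide synthesis and NADPH production. Shortage of amino acids or stress in the endoplasmic reticulum or mitochondria leads to phosphorylation of eIF2α and to translation of ATF4. ATF4 in turn raises transcription of amino acid synthesis, transport and tRNA charging genes, and of Chac1, Trib3 and Ddit3. In intestinal epithelium, serine and folate carbon supply the nucleotides of rapidly dividing crypt cells.

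Libraries held 10088285 to 14615719 counts at days 1 and 3, compared with 16141385 to 19762827 at day 6. The share of mitochondrial ribosomal RNA was 6.74% to 10.3% at days 1 and 3, compared with 0.00305% to 0.266% at day 6, so day 6 was tested within its own table. Epithelial markers (Epcam, Cdh1, Krt8) summed to between 2479 and 6724 CPM (counts scaled to a common library size) in every library. Fibroblast, immune and endothelial marker sums reached at most 1.30, 1.63 and 0.768 CPM. Levels are CPM after TMM scaling, a correction of library size for composition, and are given as mean ± SD over libraries. Fold changes are log2 values ± SE from edgeR's quasi-likelihood test, and p-values are adjusted by Benjamini-Hochberg over all genes tested with a threshold of 0.05.

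With AA at day 1, 9 of the 10 genes lay below vehicle in every library and Ddit3 overlapped. Genes with every AA library below every vehicle library made up 29.0% of all genes tested, and genes with every AA library above made up 24.6%. The median log2 difference was -0.52 over the 10 genes and -0.03 over all genes tested. The largest difference was that of Aldh1l2 (-2.04 ± 0.13, 4.12-fold lower), followed by Chac1 (-1.47 ± 0.13) and Trib3 (-1.34 ± 0.14). Psph was at -0.78 ± 0.09, and Phgdh, Psat1, Shmt2, Mthfd2 and Asns lay between -0.53 and -0.47. These values belong to the contrast that chose the genes and carry no test. Stem cell markers were also lower on that day, summing to 141 to 145 CPM with AA, 54.7 to 64.0 CPM with PGE2 and 362 to 400 CPM with vehicle, and enterocyte markers higher, at 1560 to 1651, 1415 to 1421 and 1194 to 1224 CPM in AA, PGE2 and vehicle libraries. In bulk libraries fewer cells of a type and less RNA per cell cannot be told apart.

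AA at day 3 and day 6 gave the same counts, 6 genes lower, 1 higher and 3 not called. At day 3 the background was 20.1% of all genes lower and 21.2% higher, and at day 6 it was 15.5% lower and 15.3% higher. Phgdh, Psat1, Psph, Mthfd2, Aldh1l2 and Asns fell on both days, Ddit3 rose on both days, and Shmt2, Chac1 and Trib3 passed the test on neither. Without TMM scaling 38.7% of the genes called at day 3 were higher, against 51.3% with it, and Shmt2 also fell at day 3 (-0.16 ± 0.05, adjusted p = 0.0123). Day 3 and day 6 use different vehicle libraries.

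PGE2 lowered 8 of the 9 genes tested at day 1, where Ddit3 was not called and Aldh1l2 is described only, because its day 1 vehicle libraries chose it. The other 9 genes are set against these same vehicle libraries. The background was 28.9% of all genes lower and 27.0% higher. At day 3 PGE2 lowered 9 genes and raised Ddit3, against a background of 30.1% lower and 28.9% higher. The median log2 difference over the 10 genes at day 3 was -0.75, compared with -0.04 over all genes tested. On each of these days the AA and PGE2 comparisons share their vehicle libraries, so their values are set side by side below and not correlated.

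**Figure D1:**
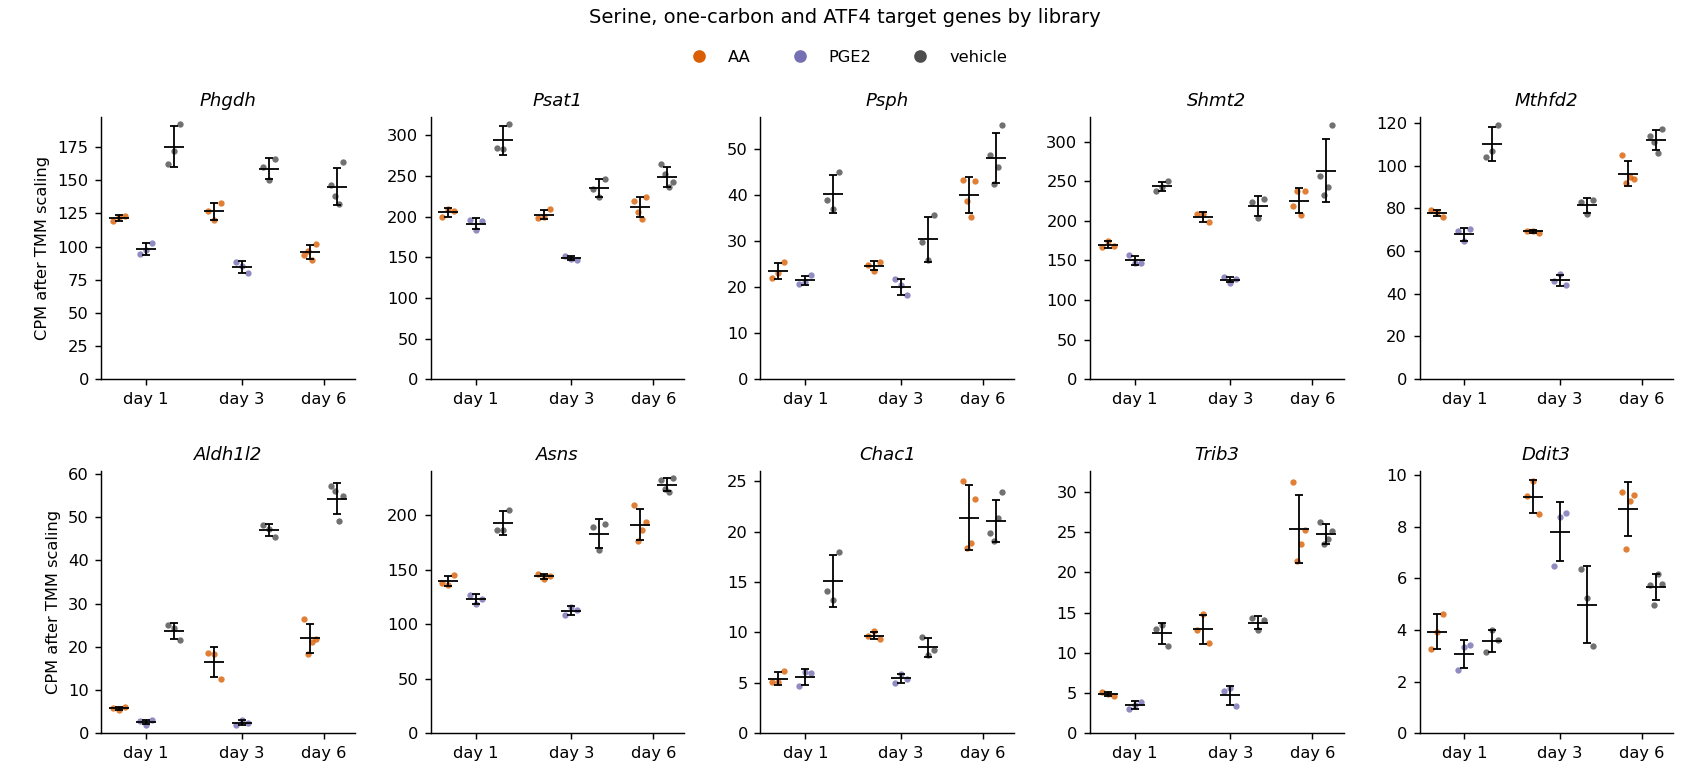
Level of each gene (CPM after TMM scaling, linear axis from 0) in every library at days 1, 3 and 6; points are libraries, black bars mark mean ± SD, with AA left of PGE2 and vehicle. Aldh1l2 averaged 2.40 CPM in PGE2 libraries and 47.0 CPM in vehicle libraries at day 3, while Ddit3 averaged 9.15 CPM with AA, 7.80 CPM with PGE2 and 4.98 CPM with vehicle.

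**Figure D2:**
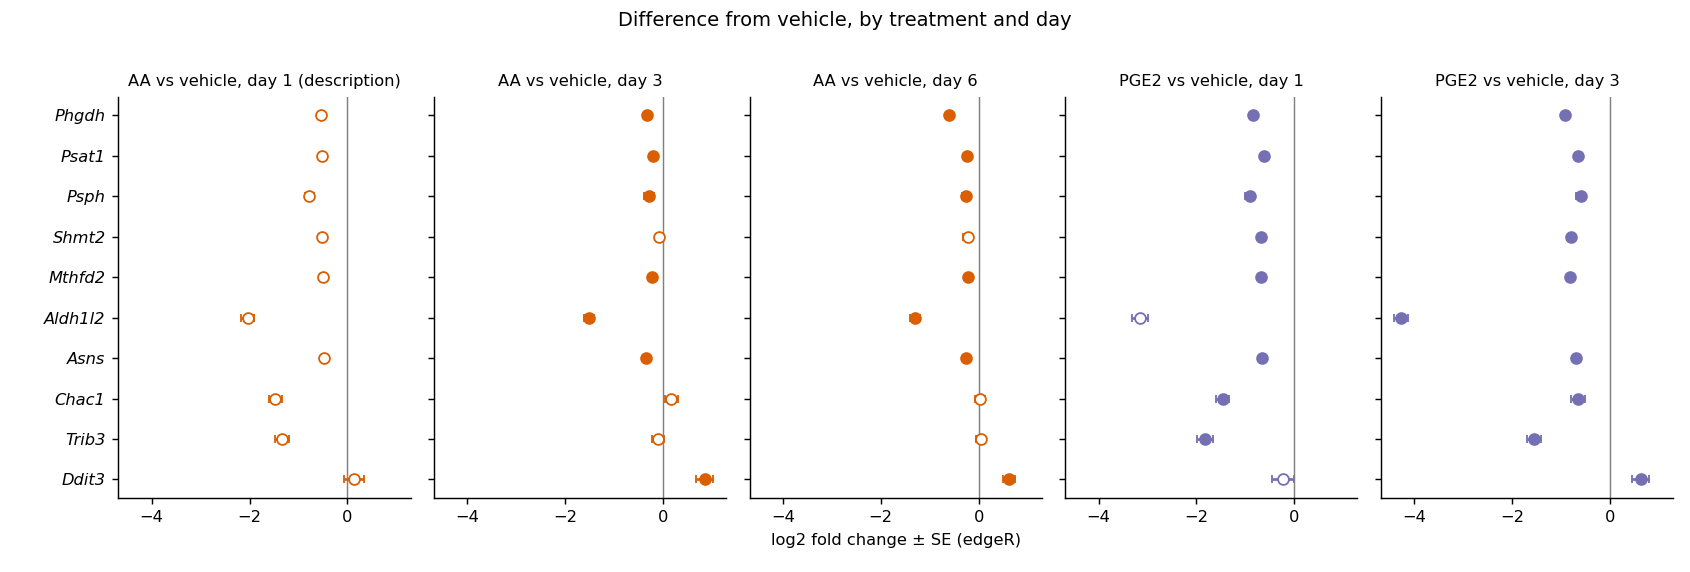
Log2 fold change ± SE (x axis) of the 10 genes against vehicle in each treatment and day; filled symbols passed an adjusted p of 0.05, open symbols did not or are descriptions (AA at day 1, and Aldh1l2 with PGE2 at day 1). Aldh1l2 stands at -4.27 with PGE2 at day 3, and Ddit3 lies right of 0 with AA at days 3 and 6 and with PGE2 at day 3.

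Phgdh (ENSMUSG00000053398, chr3:98313170-98339990, minus strand, GRCm38) encodes phosphoglycerate dehydrogenase, the first enzyme of serine synthesis. At day 1 it stood at 119, 122 and 123 CPM with AA, at 94.2, 97.3 and 103 CPM with PGE2, and at 162, 172 and 192 CPM with vehicle. The 3 groups did not overlap, and PGE2 libraries were lowest. PGE2 lowered Phgdh by 0.84 ± 0.06 at day 1 on the log2 scale (adjusted p = 1.2e-13).

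At day 3 Phgdh had 127, 120 and 133 CPM with AA, 88.5, 85.3 and 79.7 CPM with PGE2, and 160, 150 and 166 CPM with vehicle. The order of the 3 groups was that of day 1. Phgdh fell with AA (-0.32 ± 0.06, adjusted p = 2.5e-05) and with PGE2 (-0.91 ± 0.06, adjusted p = 2.2e-14). At day 6 it was at 93.7, 97.0, 89.8 and 102 CPM with AA and at 146, 138, 132 and 164 CPM with vehicle, again without overlap. The fall at day 6 was 1.52-fold (-0.60 ± 0.07, adjusted p = 8.2e-05). Phgdh was the 1 gene of the 10 whose AA response differed between day 6 and day 3 (-0.29 ± 0.09, adjusted p = 0.0240), in a joint model of all 26 libraries in which 19.1% of all genes were called. That call was lost without vehicle replicate 2 of day 3 (-0.26 ± 0.09, adjusted p = 0.0614), without AA replicate 3 of day 3 (-0.24 ± 0.10, adjusted p = 0.102) and without AA replicate 3 of day 6 (-0.27 ± 0.10, adjusted p = 0.0534).

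Psat1 (ENSMUSG00000024640, chr19:15904678-15947337, minus strand) encodes phosphoserine aminotransferase, which follows PHGDH in the pathway. It averaged 205 ± 5.32 CPM with AA, 192 ± 6.34 CPM with PGE2 and 294 ± 17.9 CPM with vehicle at day 1 (n = 3 each). Its day 3 averages were 202 ± 5.40 CPM with AA, 149 ± 2.72 CPM with PGE2 and 234 ± 11.1 CPM with vehicle, with no overlap. Psat1 fell with AA at day 3 by 0.21 ± 0.05 on the log2 scale (adjusted p = 6.0e-04) and with PGE2 by 0.66 ± 0.05 (adjusted p = 6.8e-13). At day 6 it stood at 219, 206, 197 and 224 CPM with AA and 264, 252, 236 and 243 CPM with vehicle, a fall of 0.23 ± 0.06 (adjusted p = 0.0113).

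Psph (ENSMUSG00000029446, chr5:129765558-129787449, minus strand) encodes phosphoserine phosphatase, which releases free serine. At day 3 it stood at 24.9, 23.6 and 25.5 CPM with AA, 21.7, 20.4 and 18.2 CPM with PGE2, and 29.8, 25.8 and 35.6 CPM with vehicle. The gap between the AA and vehicle libraries was narrow, 25.5 against 25.8 CPM at the nearest pair. The AA call at day 3 (-0.29 ± 0.10, adjusted p = 0.0156) did not hold without vehicle replicate 3 (-0.16 ± 0.10, adjusted p = 0.209) or AA replicate 2 (-0.27 ± 0.11, adjusted p = 0.0550). At day 6 Psph had 43.2, 38.6, 35.2 and 43.1 CPM with AA and 48.8, 42.3, 46.0 and 55.1 CPM with vehicle, so the groups overlapped (-0.26 ± 0.09, adjusted p = 0.0422). That call was lost when vehicle replicate 1, 3 or 4 or AA replicate 2, 3 or 4 was left out, with adjusted p of 0.0918, 0.0569, 0.0631, 0.0890, 0.129 and 0.0518. PGE2 lowered Psph by 0.91 ± 0.09 at day 1 (adjusted p = 3.2e-09) and by 0.60 ± 0.10 at day 3 (adjusted p = 6.6e-06). Psph shares 452 exonic bases with Cct6a on the other strand, and how strand was treated in counting is not stated. Cct6a was counted apart from Psph, at 310 ± 15.9 CPM with AA and 306 ± 22.8 CPM with vehicle at day 3 (log2 difference 0.02 ± 0.06). In the other comparisons that called Psph, Cct6a moved in the same direction by smaller log2 differences. These were -0.16 ± 0.05 with AA at day 6 (adjusted p = 0.0268), -0.21 ± 0.06 with PGE2 at day 1 (adjusted p = 0.00216) and -0.22 ± 0.06 with PGE2 at day 3 (adjusted p = 0.00102). For AA against PGE2 at day 3 it was 0.25 ± 0.06 (adjusted p = 7.7e-04). The part of shared reads in the Psph values was not tested.

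Shmt2 (ENSMUSG00000025403, chr10:127517123-127522444, minus strand) encodes mitochondrial serine hydroxymethyltransferase, which splits serine into glycine and a folate-bound carbon. At day 3 it had 208, 209 and 198 CPM with AA, 129, 122 and 126 CPM with PGE2, and 224, 204 and 227 CPM with vehicle. AA and vehicle libraries overlapped, while all PGE2 libraries lay far below both. The AA difference was -0.09 ± 0.05 (adjusted p = 0.113), and the PGE2 fall was 1.74-fold (-0.80 ± 0.05, adjusted p = 4.9e-15). Without vehicle replicate 2, Shmt2 fell with AA at day 3 (-0.14 ± 0.05, adjusted p = 0.0146). At day 6 it stood at 219, 238, 207 and 238 CPM with AA and 256, 232, 243 and 321 CPM with vehicle. Vehicle replicate 4 stood above the rest, and the difference did not pass (-0.22 ± 0.09, adjusted p = 0.0881). Without vehicle replicate 2 of day 6 it passed (-0.28 ± 0.09, adjusted p = 0.0437). Shmt2 shares 32 exonic bases with Ndufa4l2 on the other strand, which averaged at most 4.80 CPM in any group and was lower with PGE2 than with vehicle at day 3 (-3.11 ± 0.52, adjusted p = 6.9e-06).

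Mthfd2 (ENSMUSG00000005667, chr6:83305691-83325908, minus strand) encodes the mitochondrial dehydrogenase and cyclohydrolase that oxidises the carbon taken from serine. It was at 69.5, 69.6 and 68.6 CPM with AA, 45.8, 49.1 and 44.0 CPM with PGE2, and 83.0, 77.3 and 83.8 CPM with vehicle at day 3. The 3 groups did not overlap, and AA lay between PGE2 and vehicle. Mthfd2 fell with AA by 0.23 ± 0.06 (adjusted p = 9.6e-04) and with PGE2 by 0.81 ± 0.06 (adjusted p = 1.8e-13). At day 6 it had 105, 91.8, 94.5 and 93.9 CPM with AA and 114, 111, 106 and 117 CPM with vehicle (-0.22 ± 0.06, adjusted p = 0.0134). With PGE2 at day 1 it averaged 68.0 ± 3.02 CPM, against 110 ± 7.82 CPM with vehicle (-0.69 ± 0.05, adjusted p = 2.4e-12).

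Aldh1l2 (ENSMUSG00000020256, chr10:83487450-83534140, minus strand) encodes mitochondrial 10-formyltetrahydrofolate dehydrogenase, which burns the folate-bound carbon to carbon dioxide and yields NADPH. At day 1 it had 5.80, 5.42 and 5.97 CPM with AA, 2.82, 1.98 and 3.01 CPM with PGE2, and 25.1, 24.4 and 21.5 CPM with vehicle. PGE2 libraries were lowest, AA libraries intermediate and vehicle libraries highest, with wide gaps. The day 1 difference with PGE2 was -3.15 ± 0.16 on the log2 scale (8.90-fold lower), given as a description.

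At day 3 Aldh1l2 had 18.6, 18.4 and 12.5 CPM with AA, 1.81, 3.03 and 2.37 CPM with PGE2, and 48.2, 47.3 and 45.5 CPM with vehicle. AA replicate 3 was lower than the other AA libraries and still above every PGE2 library. The fall was 2.86-fold with AA (-1.52 ± 0.10, adjusted p = 8.2e-13) and 19.3-fold with PGE2 (-4.27 ± 0.14, adjusted p = 3.3e-20). The PGE2 value rests on 22, 42 and 35 reads per library. AA stood 6.75-fold above PGE2 (2.75 ± 0.17, adjusted p = 1.9e-13).

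At day 6 Aldh1l2 was at 26.5, 18.3, 21.2 and 21.9 CPM with AA and at 57.2, 56.0, 49.1 and 54.8 CPM with vehicle. Each AA library stood under every vehicle library, a 2.47-fold fall (-1.30 ± 0.10, adjusted p = 3.9e-06). The AA response did not differ detectably between day 6 and day 3 (0.20 ± 0.15, adjusted p = 0.372). Vehicle organoids held 1.99-fold more Aldh1l2 at day 3 than at day 1, a description without a test. In rising order of level, PGE2 at day 3 (2.40 ± 0.614 CPM) and PGE2 at day 1 (2.60 ± 0.548) overlapped at the bottom, and AA at day 1 (5.73 ± 0.282) and day 3 (16.5 ± 3.45) followed. AA at day 6 (22.0 ± 3.40) overlapped AA at day 3 and vehicle at day 1 (23.6 ± 1.90), and vehicle at day 3 (47.0 ± 1.37) and day 6 (54.3 ± 3.55) stood at the top without overlap. Day 6 values in this order come from a separately deposited table.

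Over days 1 and 3 the highest group mean of Aldh1l2 was 19.6 times the lowest. For the other 9 genes this ratio ran from 1.71 for Asns to 3.93 for Trib3. Per length, Aldh1l2 stood at 6.26 CPM per kb of exon in vehicle libraries at day 3, among 5 genes at low levels. Psph had 7.02, Trib3 6.49, Chac1 5.22 and Ddit3 2.91 CPM per kb, while Shmt2 had 70.1, Asns 66.9, Phgdh 64.0, Psat1 55.0 and Mthfd2 23.3 CPM per kb. Aldh1l2 shares 1056 exonic bases with D10Wsu102e on the other strand. D10Wsu102e averaged 90.9 ± 4.13 CPM with PGE2 and 114 ± 30.3 CPM with vehicle at day 3 (-0.33 ± 0.13, adjusted p = 0.0488), and 98.4 ± 7.79 CPM with AA (-0.21 ± 0.13, adjusted p = 0.229). With AA at day 6 it was also lower than with vehicle (-0.18 ± 0.06, adjusted p = 0.0369). The part of shared reads in the Aldh1l2 values was not tested.

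Of 11481 genes with a named symbol and a mean of at least 1 CPM, the 5 with a pattern nearest to Aldh1l2 over the 6 group means of days 1 and 3 were Slc7a2, Moxd1, Esrrg, Fras1 and Nrn1. Likeness was the root mean square difference of centred log2 CPM, which was 0.36 for Slc7a2 and between 0.46 and 0.49 for the others. Slc7a2, a cationic amino acid transporter, averaged 2.65 CPM with AA, 0.716 CPM with PGE2 and 12.3 CPM with vehicle at day 3. Esrrg, an orphan nuclear receptor, averaged 9.89 CPM with AA, 3.09 CPM with PGE2 and 37.1 CPM with vehicle on that day. No member of the set was among these 5. This measure counts the size of the changes as well as their order. Aldh1l2 spanned 19.6-fold over these groups and the other members at most 3.93-fold, so their absence says nothing on likeness in order alone.

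**Figure D3:**
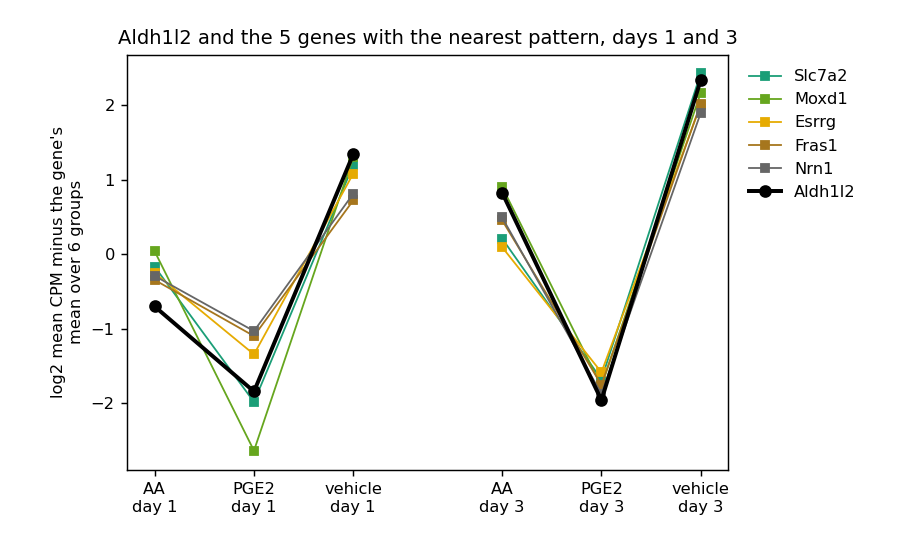
Mean log2 CPM of Aldh1l2 (black) and of the 5 genes with the smallest difference from it, each centred on its own mean over the 6 groups of days 1 and 3 (x axis). In each day every line is lowest with PGE2, higher with AA and highest with vehicle; these genes were chosen for that likeness.

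Asns (ENSMUSG00000029752, chr6:7675169-7693254, minus strand) encodes asparagine synthetase, a textbook ATF4 target. It stood at 146, 141 and 144 CPM with AA, 108, 116 and 113 CPM with PGE2, and 189, 168 and 192 CPM with vehicle at day 3. The groups did not overlap, and Asns fell with AA (-0.35 ± 0.05, adjusted p = 2.1e-06) and with PGE2 (-0.70 ± 0.05, adjusted p = 8.6e-13). At day 6 it had 209, 176, 186 and 194 CPM with AA and 232, 224, 221 and 234 CPM with vehicle (-0.25 ± 0.06, adjusted p = 0.00806). With PGE2 at day 1 it averaged 122 ± 4.31 CPM, against 193 ± 10.9 CPM with vehicle (-0.65 ± 0.05, adjusted p = 3.7e-12).

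The C/EBP-ATF response element, the composite site that ATF4 binds with a C/EBP partner, has the core letters TGATGNAA. Promoter windows around the RefSeq start sites (GRCm38.p6) were searched for it on both strands, and 9 of the 10 genes had a window; Aldh1l2 was the other. The core lay in 3 of the 9, Asns, Chac1 and Trib3, and in 4.51% of all 27025 genes with a window. The 3 sites follow on the strand of the gene, with the core in capitals. They lie on the minus strand at chr6:7693214-7693243, 34 to 5 bases before the start, for Asns, on the plus strand at chr2:119351038-119351067, 204 to 175 bases before it, for Chac1, and on the minus strand at chr2:152344028-152344057, 4 to 33 bases after it, for Trib3. Capitals read TGATGAAA in Asns and the reverse complement of the core in the others.
Asns: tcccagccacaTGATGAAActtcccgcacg
Chac1: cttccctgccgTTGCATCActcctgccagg
Trib3: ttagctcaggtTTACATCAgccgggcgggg
The cAMP response element TGACGTCA was found in 0 of the 9 genes and in 2.03% of all genes with a window. A match is a description of letters and shows no binding.

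Chac1 (ENSMUSG00000027313, chr2:119351229-119354381, plus strand) encodes an enzyme that degrades glutathione, and is among the most responsive genes when ATF4 is made. At day 1 it had 5.04, 5.04 and 6.19 CPM with AA, 4.65, 6.05 and 5.94 CPM with PGE2, and 14.1, 13.2 and 18 CPM with vehicle. Both treatments lay well under vehicle and overlapped each other, and the PGE2 fall was 2.74-fold (-1.46 ± 0.13, adjusted p = 1.0e-10). At day 3 it had 9.60, 10.1 and 9.35 CPM with AA, 5.01, 5.92 and 5.42 CPM with PGE2, and 9.59, 7.79 and 8.25 CPM with vehicle. AA overlapped vehicle (0.17 ± 0.13, adjusted p = 0.336), and PGE2 was lower than vehicle (-0.65 ± 0.14, adjusted p = 2.7e-04).

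The PGE2 response of Chac1 differed between the days (day 3 minus day 1, 0.80 ± 0.20, adjusted p = 0.00321), in a test that called 24.2% of all genes and 2 of the 9 genes of the set tested. The PGE2 libraries stood at 5.45 ± 0.457 CPM at day 3 and 5.55 ± 0.777 CPM at day 1, while vehicle libraries stood at 8.54 ± 0.935 CPM at day 3 and 15.1 ± 2.58 CPM at day 1. PGE2 levels were thus alike on both days and vehicle levels were not. The day 1 vehicle libraries belong to the contrast that chose the set, so this p-value is not independent of that choice. At day 6 Chac1 averaged 21.4 ± 3.21 CPM with AA and 21.1 ± 2.11 CPM with vehicle (0.03 ± 0.11, adjusted p = 0.879, n = 4 each).

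Trib3 (ENSMUSG00000032715, chr2:152337422-152344032, minus strand) encodes a pseudokinase that ATF4 and CHOP induce and that feeds back on both. At day 1 it had 5.18, 4.89 and 4.60 CPM with AA, 3.05, 3.55 and 3.93 CPM with PGE2, and 12.9, 13.4 and 10.9 CPM with vehicle. At day 3 it had 12.8, 14.8 and 11.2 CPM with AA, 5.26, 5.56 and 3.39 CPM with PGE2, and 14.3, 12.8 and 14.1 CPM with vehicle. AA libraries lay under vehicle at day 1 and overlapped vehicle at day 3, while PGE2 libraries lay under vehicle on both days. The AA difference at day 3 was -0.10 ± 0.12 (adjusted p = 0.528). PGE2 lowered Trib3 by 1.82 ± 0.16 at day 1 (adjusted p = 2.2e-11) and by 1.55 ± 0.14 at day 3 (adjusted p = 9.2e-11). At day 6 the values were 31.2, 21.4, 23.5 and 25.3 CPM with AA and 26.3, 23.5, 24.1 and 25.2 CPM with vehicle (0.04 ± 0.10, adjusted p = 0.824).

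Ddit3 (ENSMUSG00000025408, chr10:127290774-127296288, plus strand) encodes CHOP, a transcription factor that promotes cell death under prolonged stress. At day 1 it had 3.25, 3.91 and 4.60 CPM with AA, 2.44, 3.34 and 3.43 CPM with PGE2, and 3.14, 4.00 and 3.59 CPM with vehicle. All 3 groups overlapped at day 1, and the vehicle level per length, 2.09 CPM per kb of exon, was under that of Aldh1l2 (3.15 CPM per kb). At day 3 it had 9.17, 9.77 and 8.50 CPM with AA, 6.49, 8.38 and 8.54 CPM with PGE2, and 6.34, 5.22 and 3.37 CPM with vehicle. Every treated library stood above every vehicle library, and Ddit3 rose with AA (0.85 ± 0.17, adjusted p = 1.5e-04) and with PGE2 (0.63 ± 0.17, adjusted p = 0.00219).

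At day 6 Ddit3 stood at 9.35, 7.13, 8.99 and 9.21 CPM with AA and 5.72, 4.96, 6.16 and 5.76 CPM with vehicle, without overlap, a 1.54-fold rise (0.62 ± 0.12, adjusted p = 0.00213). The PGE2 response at day 3 exceeded that at day 1 (0.86 ± 0.28, adjusted p = 0.0217). This difference was no longer called without vehicle replicate 2 (0.78 ± 0.30, adjusted p = 0.0656) or PGE2 replicate 1 of day 1 (0.71 ± 0.29, adjusted p = 0.0902). It was also lost without vehicle replicate 3 (0.64 ± 0.26, adjusted p = 0.0761), PGE2 replicate 2 (0.78 ± 0.29, adjusted p = 0.0546) or PGE2 replicate 3 of day 3 (0.79 ± 0.29, adjusted p = 0.0552). That test also used the day 1 vehicle libraries of the contrast that chose the set. Ddit3 shares 68 exonic bases with Mars on the other strand. Mars, a methionyl-tRNA synthetase gene, was counted at 119 ± 4.78 CPM with AA and 107 ± 6.32 CPM with vehicle at day 3 (0.15 ± 0.05, adjusted p = 0.0138). In the other comparisons that called Ddit3 higher, Mars was not called. It was at -0.01 ± 0.05 with PGE2 at day 3 (adjusted p = 0.891) and -0.10 ± 0.06 with AA at day 6 (adjusted p = 0.186). The part of shared reads in the Ddit3 values was not tested. A second identifier named Ddit3 had 0 counts in all libraries.

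AA and PGE2 left different levels of the set at day 3. In 9 of the 10 genes the AA libraries were higher and passed the test, against 18.1% of all genes higher and 20.3% lower, and Ddit3 did not pass (0.22 ± 0.15, adjusted p = 0.290). The difference was 2.75 ± 0.17 for Aldh1l2, 1.45 ± 0.14 for Trib3, 0.82 ± 0.14 for Chac1 and 0.71 ± 0.05 for Shmt2. It was smallest among the 9 for Psph (0.31 ± 0.10, adjusted p = 0.0169), where the call was lost without PGE2 replicate 3 (0.24 ± 0.11, adjusted p = 0.105).

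Atf4 itself, whose protein is controlled largely at translation, had lower RNA at day 1. It stood at 167 to 173 CPM with AA, 141 to 152 CPM with PGE2 and 224 to 253 CPM with vehicle, and fell with AA (-0.47 ± 0.05, adjusted p = 4.0e-09) and PGE2 (-0.68 ± 0.05, adjusted p = 6.6e-13). Its day 3 range was 169 to 177 CPM with AA, 141 to 148 CPM with PGE2 and 163 to 183 CPM with vehicle. AA libraries lay within the vehicle range (-0.02 ± 0.05, adjusted p = 0.762), and PGE2 libraries lay under it (-0.28 ± 0.05, adjusted p = 2.0e-05). The PGE2 response of Atf4 at day 3 minus day 1 was 0.40 ± 0.07 (adjusted p = 7.8e-05). At day 6 Atf4 was not called (263 to 283 CPM with AA, 285 to 323 CPM with vehicle, -0.13 ± 0.06, adjusted p = 0.116).

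Other genes listed as ATF4 or integrated stress response genes moved in both directions. Of 18 tested, 12 fell and 3 rose with AA at day 1 (background 22.2% lower and 19.5% higher), 10 fell and 6 rose with AA at day 3, and 7 fell and 1 rose with AA at day 6. The background was 20.1% lower and 21.2% higher at day 3 and 15.5% lower and 15.3% higher at day 6. With PGE2, 10 fell and 4 rose at day 1 (background 28.9% lower and 27.0% higher), and 11 fell and 5 rose at day 3 (background 30.1% lower and 28.9% higher). Pck2, mitochondrial phosphoenolpyruvate carboxykinase, fell in all 5 comparisons with vehicle, by 1.30 ± 0.06 with AA and 2.00 ± 0.07 with PGE2 at day 1 and by 0.91 ± 0.06 with AA and 1.63 ± 0.06 with PGE2 at day 3. Stc2, a secreted glycoprotein, fell by 2.66 ± 0.10 with PGE2 at day 3 (adjusted p = 7.2e-20) and by 1.18 ± 0.14 with AA at day 6 (adjusted p = 7.3e-05). Atf5, a relative of ATF4, fell by 0.67 ± 0.07 with AA and 1.33 ± 0.07 with PGE2 at day 3.

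Atf3, an early stress-induced repressor, moved opposite to the median of that list, rising with AA at day 1 (1.58 ± 0.14, adjusted p = 5.7e-11) and with PGE2 at day 1 (1.99 ± 0.13, adjusted p = 6.8e-14). Its range was 12.2 to 13.7 CPM with AA, 16.0 to 17.8 CPM with PGE2 and 3.67 to 4.71 CPM with vehicle. The cysteine-glutamate exchanger gene Slc7a11 also rose, by 1.11 ± 0.05 with AA and 0.92 ± 0.05 with PGE2 at day 1. Of 10 amino acid transporter genes, 5 fell and 4 rose with AA at day 1, when 22.2% of all genes fell and 19.5% rose, and 6 fell and 4 rose with PGE2 at day 3, when 30.1% of all genes fell and 28.9% rose. Slc1a5, a glutamine transporter, fell by 0.33 ± 0.04 with AA and 0.59 ± 0.04 with PGE2 at day 3. Slc6a9 of the same list rose by larger log2 differences on that day, 0.76 ± 0.08 with AA (adjusted p = 4.1e-09) and 1.51 ± 0.07 with PGE2 (adjusted p = 2.7e-17).

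Cytosolic aminoacyl-tRNA synthetase genes, which charge tRNAs, were lower at day 1, when 8 of 12 fell and 0 rose with AA and 9 fell and 1 rose with PGE2. Over all genes on that day 22.2% fell and 19.5% rose with AA, and 28.9% fell and 27.0% rose with PGE2. Yars1 fell by 0.37 ± 0.05 with AA and by 0.56 ± 0.05 with PGE2. At day 3, 6 rose and 1 fell with AA, against 21.2% of all genes higher and 20.1% lower, and the list median was 0.13, compared with -0.03 over all genes tested. With PGE2 at day 3, 2 rose and 3 fell, against 28.9% of all genes higher and 30.1% lower. With AA at day 6, 1 of the 12 fell (Yars1) and 0 rose, against 15.5% of all genes lower and 15.3% higher. Of the 12, 8 had a higher PGE2 response at day 3 than at day 1 and 0 a lower one, in a test that called 24.2% of all genes in either direction, the largest being that of Tars1 (0.39 ± 0.07, adjusted p = 7.2e-05). The TGATGNAA core was found in 5 of the 8 synthetase genes with a window (Aars1, Gars1, Iars1, Tars1, Yars1), in 7 of 18 other ATF4 genes and in 0 of 22 other folate genes.

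The ATF6 and XBP1 arms of the endoplasmic reticulum stress response run beside ATF4. Of 16 chaperone and ATF6 or XBP1 target genes, 5 fell and 1 rose with AA at day 1, 2 fell and 4 rose with AA at day 3, and 0 fell and 3 rose with AA at day 6. Over all genes 22.2% fell and 19.5% rose with AA at day 1, 20.1% fell and 21.2% rose at day 3, and 15.5% fell and 15.3% rose at day 6, so the AA counts of this list at day 3 were near the background, as was its count of higher genes at day 6. PGE2 gave 7 lower and 1 higher at day 1 (background 28.9% lower and 27.0% higher) and 6 lower and 3 higher at day 3 (background 30.1% lower and 28.9% higher). Dnajb9, an endoplasmic reticulum co-chaperone, rose by 0.38 ± 0.10 with AA at day 3 and by 0.72 ± 0.08 with AA at day 6. Eif2ak3, which encodes the eIF2α kinase PERK, rose by 0.42 ± 0.07 with AA and 0.79 ± 0.07 with PGE2 at day 1. At day 3 Eif2ak3 was lower with AA (-0.18 ± 0.07, adjusted p = 0.0303) and higher with PGE2 (0.57 ± 0.06). Eif2ak4, another kinase gene, fell with AA by 0.33 ± 0.07 at day 1 and 0.47 ± 0.08 at day 3. Dele1, a relay of mitochondrial stress, fell at day 1 by 0.41 ± 0.06 with AA and 0.48 ± 0.06 with PGE2. Of 9 eIF2α kinase and regulator genes tested, 2 fell and 2 rose with AA at day 1, and 3 fell and 3 rose at day 3. With PGE2, 2 fell and 3 rose at day 1 (background 28.9% lower and 27.0% higher). At day 3, 2 fell and 5 rose with PGE2 (background 30.1% lower and 28.9% higher). The day 1 counts of this list were near the background with both treatments.

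Paralogs of the one-carbon enzymes were followed under the same tests. Shmt1, the cytosolic form of SHMT2, fell with AA at day 1 (-0.33 ± 0.05, adjusted p = 1.1e-06), day 3 (-0.27 ± 0.05, adjusted p = 3.5e-05) and day 6 (-0.39 ± 0.06, adjusted p = 4.3e-04). It also fell with PGE2 at days 1 and 3 (-0.70 ± 0.05 on each day). Aldh1l1, the cytosolic form of ALDH1L2, had 11.3 to 14 CPM with AA, 12.7 to 17.4 CPM with PGE2 and 27.3 to 29.5 CPM with vehicle at day 1. It fell with AA (-1.14 ± 0.10, adjusted p = 5.3e-10) and PGE2 (-0.85 ± 0.10, adjusted p = 5.4e-08) on that day. At day 3 it stood at 31.3 to 38.8 CPM with AA, 47.8 to 53.1 CPM with PGE2 and 36.4 to 40.9 CPM with vehicle. It was thus higher with PGE2 (0.38 ± 0.08, adjusted p = 3.0e-04) at the time when Aldh1l2 was 19.3-fold lower. Its PGE2 response differed between the days by 1.23 ± 0.13 (adjusted p = 4.5e-08).

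Mthfd1, the cytosolic trifunctional enzyme, fell with AA at day 1 (-0.24 ± 0.05, adjusted p = 1.1e-04), day 3 (-0.13 ± 0.05, adjusted p = 0.0357) and day 6 (-0.37 ± 0.06, adjusted p = 0.00119). It also fell with PGE2 at day 3 (-0.27 ± 0.05, adjusted p = 2.4e-05). Mthfd1l, which releases formate from mitochondria, fell with AA at day 1 (-0.17 ± 0.05, adjusted p = 0.00456) and with PGE2 at day 3 (-0.22 ± 0.05, adjusted p = 2.5e-04). It was not called with AA at day 3 (-0.04 ± 0.05). Mthfd2l, the paralog of MTHFD2, was at 12.3 to 13.3 CPM with PGE2 and 13.6 to 16.0 CPM with vehicle at day 3 and did not pass (-0.25 ± 0.11, adjusted p = 0.0584). It fell with AA on that day (-0.32 ± 0.12, adjusted p = 0.0256).

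Among all 26 other folate and one-carbon genes tested at day 3, 7 fell and 3 rose with AA, against 20.1% of all genes lower and 21.2% higher, and 14 fell and 5 rose with PGE2, against 30.1% lower and 28.9% higher. At day 1, 11 fell and 3 rose with AA, and 12 fell and 3 rose with PGE2. The background at day 1 was 22.2% lower and 19.5% higher with AA, and 28.9% lower and 27.0% higher with PGE2. At day 6, 12 of 25 fell and 1 rose with AA, against 15.5% lower and 15.3% higher over all genes. Gldc, the glycine decarboxylase of mitochondria, rose with PGE2 at day 3 (9.32 to 10.2 CPM, against 1.23 to 1.50 CPM with vehicle, 2.83 ± 0.19, adjusted p = 9.4e-14). Ggh, which trims folate polyglutamates, rose by 2.07 ± 0.09 with PGE2 and by 1.00 ± 0.10 with AA at day 3. Cth, which makes cysteine from the product of serine and homocysteine, fell with PGE2 at day 1 by 2.12 ± 0.07 (adjusted p = 1.0e-21) and at day 3 by 1.31 ± 0.06 (adjusted p = 2.3e-17). It belongs to a separate list of serine and methionine use, in which 9 genes were tested and moved in both directions. With PGE2, 4 of these fell and 3 rose at day 1, and 3 fell and 5 rose at day 3, against the PGE2 backgrounds above. Cbs of that list rose with PGE2 at day 1 (1.26 ± 0.10, adjusted p = 4.5e-12).

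**Figure D4:**
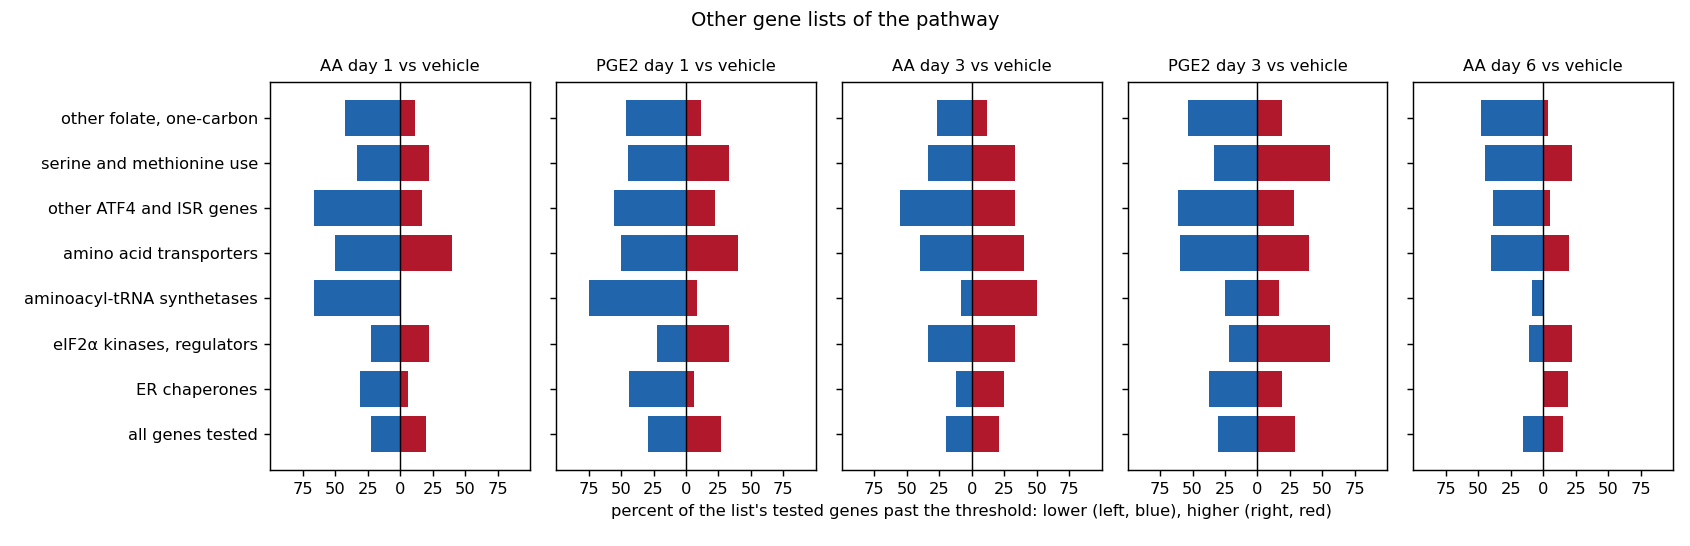
Percent of the tested genes of 7 other lists, and of all genes tested, that were lower (left) or higher (right) than vehicle at an adjusted p of 0.05, by treatment and day. Aminoacyl-tRNA synthetase genes reach 9 lower of 12 with PGE2 at day 1, and 6 higher of 12 with AA at day 3.

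Cell type markers moved with the treatments. The summed level of 4 stem cell markers (Lgr5, Olfm4, Ascl2, Smoc2) was 402 to 469 CPM with AA, 133 to 167 CPM with PGE2 and 1525 to 1646 CPM with vehicle at day 3. The 4 Paneth cell markers (Lyz1, Mmp7, Itln1, Ang4) summed to 531 to 660 CPM with AA, 545 to 584 CPM with PGE2 and 1523 to 1715 CPM with vehicle on that day. The 5 cycling cell markers summed to 1460 to 1623 CPM with AA, 1242 to 1273 CPM with PGE2 and 1723 to 1811 CPM with vehicle. The 6 enterocyte markers ran the other way, at 2192 to 2480 CPM with AA, 2209 to 2418 CPM with PGE2 and 1191 to 1232 CPM with vehicle. The 4 goblet cell markers (Muc2, Tff3, Agr2, Fcgbp) summed to 600 to 737 CPM with AA, 2090 to 2111 CPM with PGE2 and 976 to 1029 CPM with vehicle at day 3, so the treatments lay on opposite sides of vehicle. The 3 enteroendocrine markers (Chga, Chgb, Neurog3) summed to 40.1 to 47.9 CPM with AA, 28.7 to 39.4 CPM with PGE2 and 110 to 129 CPM with vehicle. At day 6 Paneth cell sums were 1085 to 1345 CPM with AA and 2164 to 2788 CPM with vehicle, and cycling cell sums were 1926 to 2007 CPM with AA and 2179 to 2299 CPM with vehicle, both without overlap. Goblet cell sums on that day were 2560 to 2787 CPM with AA and 1987 to 2477 CPM with vehicle, and enteroendocrine sums were 190 to 210 CPM with AA and 247 to 306 CPM with vehicle. Overlapping stem cell sums were 351 to 509 CPM with AA and 473 to 593 CPM with vehicle at day 6, and enterocyte sums were 2306 to 2896 CPM with AA and 1129 to 1391 CPM with vehicle. All markers of these 6 lists were detected in every group. The part of these shifts in the values of the 10 genes was not tested.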

How the data were processed

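RNA of 26 mouse organoid libraries in 8 groups was measured with a directional library kit, per the labels' protocols. The authors deposited raw counts of reads per gene in 2 tables, one for days 1 and 3 and one for day 6, and 0 columns lacked a sample. The submitters' processing notes list limma 3.46, DESeq2, STAR and cutadapt with no roles, and name a human build, GRCh38.p6, while the identifiers are mouse Ensembl genes. Which program counted the reads, with which annotation and strand setting, is not given in the sources used. Of 55385 identifiers, 99.6% matched a name, and gene positions are those of GENCODE M21 on GRCm38.

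In R 4.3.3, edgeR 4.0.16 was run on the deposited counts after filterByExpr and TMM scaling, with 1 mean per group and robust quasi-likelihood spread. One model covered days 1 and 3 with 18 libraries and 14850 genes (12 residual degrees of freedom), and another covered day 6 with 8 libraries and 14663 genes (6 residual). A joint model of 26 libraries (15504 genes) served for the AA response at day 6 minus day 3. CPM values used TMM library sizes without a prior count. The procedure was also run on simulated counts. These held few changed genes and the same added spread for every gene, unlike these data, so that run does not show its behaviour here. No pair of replicates held identical counts (chi-square per degree of freedom 1.24 to 25.2 over 30 pairs). Repeat sequencing of the same RNA is not excluded by this measure. Promoter windows came from RefSeq.

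The genes and lists were chosen with earlier results of these data known. A rule made these genes eligible to be named: the 10 genes, Atf4, 5 paralogs, up to 3 called genes with the smallest p per other list and comparison, and the 5 genes most like Aldh1l2. The called genes of other lists given above are a selection, and not every eligible gene is given. Some genes that share exonic bases with the 10 were named too. Values of Atf3 at day 1 and of Eif2ak3 with AA at day 3 lay outside this rule and were added after they were seen. Deviations of same-numbered replicates were at most weakly correlated, so no block was used in the main models. Alternatives were DESeq2 1.42.0, other scalings and filters, other sets of libraries, a replicate block, and leaving out each library.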

Additional observations from a re-analysis of the deposited data

Results flagged for a closer look

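In AA replicate 2 of day 6, Ddit3 stood at 7.13 CPM, apart from the nearest other AA library at 8.99 CPM; the gap was 0.836 of the group's range. Of 20 groups of 4 libraries checked, 1 stood out in this way, and chance gives about 1 in 20. Ddit3 also rose with AA at day 6 when that library was left out.

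The PGE2 response of Chac1 was 0.80 higher on the log2 scale at day 3 than at day 1 (adjusted p = 0.00321, edgeR), and that of Ddit3 was 0.86 higher (adjusted p = 0.0217). Both differences use the day 1 vehicle libraries of the contrast that chose the set, so their p-values are not independent of that choice. Chac1 kept this call under all 20 alternatives and Ddit3 under 15 of 20. The AA response of Phgdh was lower at day 6 than at day 3 (log2 difference -0.29, adjusted p = 0.0240) and kept this call under 17 of 22 alternatives. The PGE2 test called 24.2% of all genes and 2 of the 9 genes tested here. The AA test called 19.1% of all genes and 1 of the 10. Neither share of the set was above that over all genes.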

How the results depend on the processing

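Of 1280 values of the 10 genes under alternatives, 1235 were unchanged, 19 lost a call, 7 gained one and 19 changed sign. An unchanged tested value kept its direction and its side of the threshold. A value given as a description has no threshold, and counted as unchanged if it moved by less than the spread between libraries. Calls with PGE2 against vehicle numbered 8 at day 1 and 10 at day 3 under all 14 alternatives each. Calls numbered 6 to 8 with AA at day 3 and at day 6, and 8 or 9 for AA against PGE2. Every change of sign was in a value near 0 that was not called. With total counts alone, the difference of PGE2 responses became 0.01 for Psat1 and for Asns, and that of AA responses became 0.04 for Psat1. For Mthfd2 the difference of AA responses was -0.01 without mitochondrial and rRNA-like genes and also with only the groups compared. Leaving out 1 library in turn gave -0.06 to 0.09 for Chac1 and -0.08 to 0.11 for Trib3 with AA at day 6. It gave -0.11 to 0.12 for Psph and -0.04 to 0.03 for Mthfd2 in the difference of AA responses. In that difference, total counts alone and only the groups compared left 0 of the 10 genes called (Phgdh -0.22 and -0.31), and the groups compared alone called 1812 genes in place of 2969; leaving out 1 library gave 0 or 1 gene called there. For the difference of PGE2 responses it gave 1 or 2 genes called. Total counts alone moved the share of higher calls to 63.5%, in place of 52.2%, for the PGE2 difference of responses and to 63.1%, in place of 45.9%, for that of AA. The causes of these changes were not tested.

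Correlations of same-numbered deviations ran from -0.09 to 0.18, with the highest at day 6. Such weak correlations do not exclude a pairing of libraries by replicate number. With a replicate block, 7 of the 10 genes were called with AA at day 3 and 8 at day 6, where Shmt2 was added (-0.21, adjusted p = 0.0480), and the count over all genes at day 6 was 4545 in place of 4507. The block raised the count over all genes in every comparison, most for the difference of AA responses, to 3471 in place of 2969. At 2 to 6 CPM, as for Ddit3, Chac1 and Aldh1l2 in some groups, few reads limit precision.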
